A study of Bos taurus with 9 samples.

Results

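The IFIT (interferon induced protein with tetratricopeptide repeats) and IFITM (interferon induced transmembrane protein) families were followed across 9 RNA-seq libraries of bovine endometrial cells. The members were chosen by gene symbol, as IFIT1, IFIT2, IFIT3, IFIT5, IFITM1, IFITM2 and IFITM3, and 6 of these 7 symbols are among the 17162 genes of the expression table. No row carries the symbol IFIT1, but the row LOC100139670 is described in the table as an IFIT1 protein, and it is given below among 6 further rows whose description names either family. All 6 members present passed the filter on low values, which kept 12578 genes with a mean of at least 0.5 FPKM, a read count scaled by exon length and by how many reads the library had mapped.

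Both families belong to the antiviral programme that type I interferons switch on. Interferon binds the IFNAR1 and IFNAR2 receptor chains, and the kinases JAK1 and TYK2 then activate the transcription factor ISGF3, which turns on the target genes. IFIT proteins are cytoplasmic and bind foreign RNA, chiefly RNA whose end lacks the marks of host mRNA, and so limit its translation. IFITM proteins are small membrane proteins that hinder the fusion of enveloped viruses with the cell. In ruminants the signal in early pregnancy is interferon tau (IFNT), a type I interferon that the conceptus secretes, and interferon-stimulated genes are known to rise in the endometrium at that stage.

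The cells (BEND) are labelled as primary bovine endometrial epithelial cells, and the study took them from Holstein uteri collected at an abattoir. CON were untreated cells, GA cells received estradiol (E2, 1 nM) and progesterone (P4, 100 nM), and GB cells received these hormones for 12 h followed by 12 h with IFNT (100 ng/mL), with 3 libraries in each group. GB vs. GA thus asks what IFNT adds to the hormones, GB vs. CON what both add together, and GA vs. CON what the hormones do alone. The collection times of the CON and GA cells are not given separately in the sources used here, so IFNT and culture time cannot be told apart in the comparisons with GB. The length of hormone exposure may differ between GA and GB as well, and in GB vs. GA it cannot be told apart from IFNT. The study calls the replicates biological, but the sources used here do not tie each one to a separate animal or culture, so the p-values measure the spread between these libraries, which may in part be technical.

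The libraries summed to between 1395622 and 1442723 FPKM and had between 14452 and 14893 genes above 0. On the log2 scale they correlated at 0.989 to 0.991 within groups and at 0.955 to 0.990 between groups, so these ranges overlap. Read depth is not part of the table. The 9 epithelial markers examined, with KRT8, KRT18 and CDH1 among them, summed to only 0.92 to 2.13 FPKM in any library and none passed the filter, whereas 8 stromal markers summed to between 16278 and 16862 FPKM in the CON libraries, between 16495 and 16819 FPKM in the GA libraries and between 14753 and 14852 FPKM in the GB libraries. These RNA levels therefore went against the epithelial label. The study identified the cells as epithelial by cytokeratin immunofluorescence, which was not analysed here. Immune markers (8 genes) summed to between 31.3 and 33.8 FPKM in CON, between 30.9 and 34.7 FPKM in GA and between 24.7 and 32.9 FPKM in GB, and endothelial markers (5 genes) to 1.63 to 2.23, 1.38 to 1.76 and 2.18 to 3.39 FPKM. Of the 30 markers, 13 passed the filter and by limma none of these was called, with 7 at an unadjusted p under 0.05 in GB vs. GA, 9 in GB vs. CON and 3 in GA vs. CON. By limma, 6 of the 8 stromal markers had an adjusted p under 0.05 in GB vs. GA, beside 29% of all tested genes. The stromal count was 5 in GB vs. CON and 3 in GA vs. CON. The shares of all tested genes at that adjusted p in these comparisons are not given here, so these counts cannot be judged against them. In GB vs. GA, 1 endothelial marker passed. No marker was at 0 in all 9 libraries, and the part of the lower stromal sum in the GB results was not tested.

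All 6 members rose in the cells given IFNT. A gene was called when its log2 fold change (log2FC), on the log2(FPKM + 0.5) scale, was beyond 1 in size and its Benjamini-Hochberg adjusted p in limma was under 0.05, and 6 of 6 members were called higher in GB vs. GA, where 2.66% of all tested genes were. The same count of 6 was called higher in GB vs. CON, beside 2.94% of all tested genes. The members' median log2FC was 4.77 in GB vs. GA and 3.85 in GB vs. CON, and the median over all tested genes was -0.08 and -0.02. No GB library overlapped a CON or GA library for any member, which 15.7% of tested genes showed upward in GB vs. GA and 22.2% in GB vs. CON. The 3 GB libraries enter both comparisons, which are therefore not separate evidence. In bulk RNA, more cells expressing a gene and more RNA per cell cannot be told apart.

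**Figure D1:**
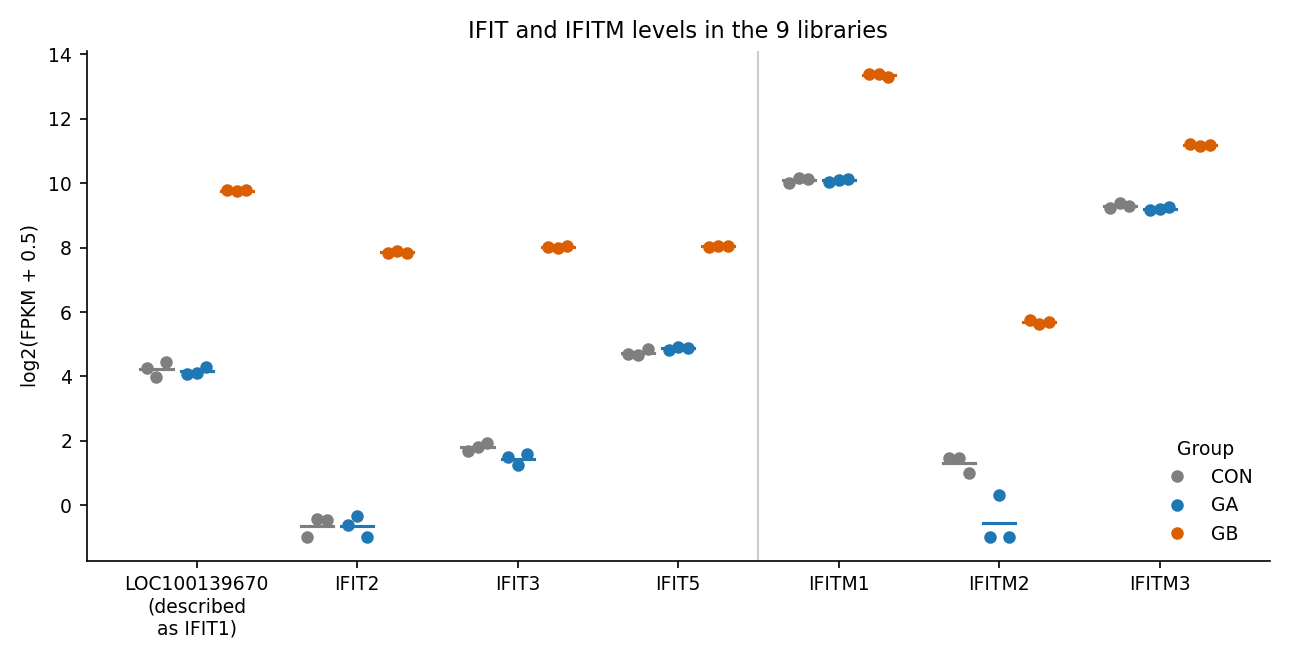
Level of each gene, as log2(FPKM + 0.5) on the vertical axis, in the CON (grey), GA (blue) and GB (orange) libraries for LOC100139670, IFIT2, IFIT3 and IFIT5 on the left and IFITM1, IFITM2 and IFITM3 on the right; each point is 1 library and each bar the group mean of the log2 values. For every gene the 3 GB points lie above all 6 CON and GA points, and IFIT2, IFIT3 and IFIT5 reach nearly the same level in GB.

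Among the IFITs, IFIT2 went from almost no RNA to a high level. IFIT2 binds RNA together with other IFIT proteins and is known in mice for restricting neurotropic viruses. Its FPKM was 0, 0.24 and 0.23 in CON, 0.15, 0.29 and 0 in GA, and 228, 239 and 229 in GB. CON and GA overlapped, with 1 library listed at 0 in each, and the 3 GB libraries lay close together at 232 ± 5.86 FPKM (SD, n = 3). The log2FC in GB vs. GA was 8.51 (SE 0.19, 95% confidence interval 8.08 to 8.95, limma adjusted p = 1.38e-09), and only 3 of the 12578 tested genes had a larger rise. Because the level without IFNT is near 0, this size depends on the pseudocount, and it was 10.08 with a pseudocount of 0.1 and 7.67 with a pseudocount of 1. In GB vs. CON the log2FC was 8.49 (limma adjusted p = 1.39e-09).

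IFIT3, which binds IFIT1 and stabilises it on RNA, also rose from a low level. The libraries gave 2.72, 2.98 and 3.29 FPKM in CON, 2.3, 1.9 and 2.51 FPKM in GA and 258, 255 and 266 FPKM in GB. Every GA library was below every CON library, and every GB library was far above both groups. The log2FC was 6.58 (SE 0.10, 95% confidence interval 6.36 to 6.79, limma adjusted p = 1.12e-10) in GB vs. GA and 6.22 (limma adjusted p = 1.43e-10) in GB vs. CON, and the rise in GB vs. GA ranked 21 among all tested genes.

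IFIT5, an IFIT that binds RNA on its own, was already expressed in the untreated cells and rose by less. It had 25.2, 24.9 and 28.3 FPKM in CON, 27.6, 29.9 and 29.3 FPKM in GA and 261, 262 and 263 FPKM in GB. CON and GA overlapped, and the GB libraries were within 2 FPKM of each other (262 ± 0.793 FPKM, SD, n = 3). Its log2FC was 3.16 (SE 0.06, 95% confidence interval 3.03 to 3.29, limma adjusted p = 4.12e-10) in GB vs. GA and 3.30 (limma adjusted p = 3.49e-10) in GB vs. CON.

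The IFIT1-described row LOC100139670 had the highest level of the IFITs in GB. IFIT1 recognises mRNA caps that lack the methylation of host caps. The row gave 18.9, 15.3 and 21.4 FPKM in CON, 16.3, 16.9 and 19.0 FPKM in GA, and 887, 859 and 877 FPKM in GB. CON and GA overlapped, and GB stood apart with a log2FC of 5.61 (SE 0.11, limma adjusted p = 5.16e-10) over GA and 5.54 over CON. The description is a match by name in the table, not a member symbol, and the row was left out of the counts of members.

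IFIT2, IFIT3 and IFIT5 were thus at almost the same level in GB and at very different levels in CON and GA. The ratio of the highest to the lowest of their 3 group means was 167 in CON, 197 in GA and 1.13 in GB. The RNA added in GB over GA was 231.8 FPKM for IFIT2, 257.2 FPKM for IFIT3 and 233.3 FPKM for IFIT5, against 856.9 FPKM for LOC100139670. IFIT5 exceeded IFIT3 by 8.36 to 9.28 times in the CON libraries and by 11.7 to 15.8 times in the GA libraries, but the ratio was 0.990 to 1.03 in the GB libraries, where the FPKM of both genes overlapped. IFIT2 remained below IFIT5 and IFIT3 in every GB library.

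IFITM1 was the most abundant member in every group. Its protein sits mainly at the cell surface, where it blocks the entry of enveloped viruses, and it is a well known response of the ruminant endometrium to pregnancy. CON libraries had 1031, 1140.2 and 1128 FPKM, GA libraries 1049, 1096 and 1119 FPKM, and GB libraries 10658, 10772 and 10179 FPKM. CON and GA overlapped, whereas the GB mean (10536 ± 315 FPKM, SD, n = 3) was 9.68 times the GA mean (1088 ± 35.5 FPKM, SD, n = 3). The log2FC was 3.27 (SE 0.05, 95% confidence interval 3.16 to 3.39, limma adjusted p = 1.27e-10) in GB vs. GA and 3.26 (limma adjusted p = 1.42e-10) in GB vs. CON. When all genes of a library were ranked by FPKM, IFITM1 stood between ranks 206 and 219 in CON, between 214 and 229 in GA and at 6 or 7 in GB. It held 0.720% to 0.764% of the summed FPKM of the GB libraries and 0.0731% to 0.0777% of that of the GA libraries.

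IFITM3, whose protein acts in endosomes against viruses taken up there, came next in level but had the smallest log2FC of the 6 members. The FPKM was 596, 668 and 628 in CON, 576, 589 and 617 in GA and 2365, 2279 and 2335 in GB. GA and CON overlapped, and GB lay above both with a log2FC of 1.97 (SE 0.05, 95% confidence interval 1.86 to 2.08, limma adjusted p = 2.35e-09) over GA and 1.88 (limma adjusted p = 3.13e-09) over CON. The rise ranked 170 among all tested genes in GB vs. GA, and the rank by level moved from 393 to 416 in GA to 98 to 107 in GB.

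IFITM2, a close relative of IFITM3 that also acts in endosomes, had little RNA without IFNT. It had 2.25, 2.24 and 1.52 FPKM in CON, 0, 0.75 and 0 FPKM in GA, and 54.0, 49.1 and 51.2 FPKM in GB. The 3 groups did not overlap, and GA was lowest with 2 of its libraries listed at 0. The log2FC was 6.26 (SE 0.32, 95% confidence interval 5.54 to 6.98, limma adjusted p = 5.76e-07) in GB vs. GA and 4.39 (SE 0.32, limma adjusted p = 8.16e-06) in GB vs. CON. With a pseudocount of 0.1 the value in GB vs. GA was 7.98, and with a pseudocount of 1 it was 5.44.

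**Figure D2:**
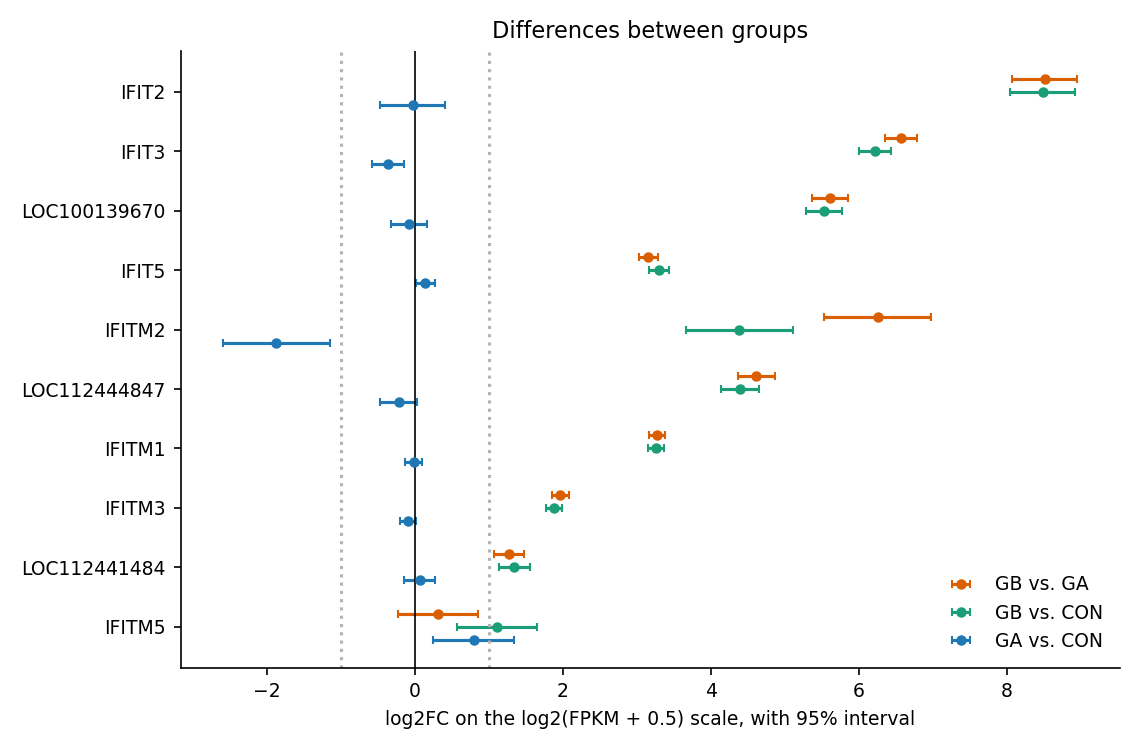
log2FC with 95% confidence intervals (limma, log2(FPKM + 0.5) scale) of the 6 members and 4 related rows in GB vs. GA (orange), GB vs. CON (green) and GA vs. CON (blue), with dotted lines at a log2FC of 1 in either direction. The members' values in GB vs. GA run from 1.97 for IFITM3 to 8.51 for IFIT2, whereas in GA vs. CON IFITM2 lies at -1.87 and the other 5 members between -0.36 and 0.14.

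With the hormones alone, 1 of the 6 members was called. In GA vs. CON, IFITM2 was called lower and the other 5 members were not called, beside 0.0398% of all tested genes called lower and 0.0318% called higher. The IFITM2 log2FC was -1.87 (SE 0.32, limma adjusted p = 0.0498). The call rests on very little RNA, since the CON values are close to 3, 2.99 and 2.03 times the 0.75 FPKM of the only GA library above 0. It was lost when any library other than GA replicate 2 was left out (limma adjusted p = 0.0566 to 0.163, log2FC -2.02 to -1.65), and without GA replicate 2 the adjusted p was 0.00332. IFIT3 was lower in all 3 GA than in all 3 CON libraries, with a log2FC of -0.36 (SE 0.10) that missed the threshold (limma adjusted p = 0.115), and 6.13% of tested genes had GA libraries below all CON libraries. The remaining values were 0.14 for IFIT5 (limma adjusted p = 0.223), -0.02 for IFIT2 (0.959), -0.01 for IFITM1 (0.896) and -0.09 for IFITM3 (0.354). The 95% confidence interval for IFITM1 ran from -0.12 to 0.10 and that for IFIT2 from -0.46 to 0.41. IFIT2 had at most 0.29 FPKM in any CON or GA library, below the pseudocount of 0.5, which compresses its differences on this scale. Its interval therefore does not bound a hormone effect on IFIT2.

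Ordered by level, the members ran IFITM1, IFITM3, IFIT5, IFIT3, IFITM2 and IFIT2 in CON and GA. In CON no neighbours in this order overlapped, and in GA only IFITM2 and IFIT2 did. In GB the order was IFITM1, IFITM3, IFIT5, IFIT3, IFIT2 and IFITM2, where IFIT5 and IFIT3 overlapped and the other neighbours did not. IFIT2 and IFITM2 had thus changed places. Within groups the spread was narrow in GB for IFIT5, with a coefficient of variation of 0.302%, and stood at 2.99% for IFITM1.

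Of the 6 further family rows, 4 passed the filter and 3 of these were called higher in GB vs. GA, LOC100139670 and a pair of IFITM rows. LOC112444847 carries the same protein accession as IFITM1 in the table, so the counting could split reads between them and the level of each is uncertain. The other IFITM genes resemble each other too, and how much of their reads was shared is not known from the table. It gave 127, 164 and 132 FPKM in CON, 103, 129 and 131 FPKM in GA and 3084, 2872 and 2934 FPKM in GB, and its GB libraries stood above all others with a log2FC of 4.62 (SE 0.11, limma adjusted p = 1.97e-09) over GA. IFITM1 exceeded it by 8.52 to 10.2 times in GA and by 3.46 to 3.75 times in GB. With both rows summed, an alternative added after the data were seen, the log2FC was 3.48 (limma adjusted p = 1.35e-10) in GB vs. GA, 3.44 in GB vs. CON and -0.04 in GA vs. CON.

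LOC112441484, described as IFITM3-like, was called higher with a smaller log2FC than IFITM3, a difference that was not tested. Its libraries gave 73.9, 75.1 and 87.1 FPKM in CON, 79.9, 93.3 and 75.1 FPKM in GA and 212, 202 and 187 FPKM in GB, with a log2FC of 1.28 (SE 0.09, limma adjusted p = 8.64e-06) in GB vs. GA. GB lay above both other groups, which overlapped.

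IFITM5, a family member known from bone-forming cells rather than from antiviral defence, was not called in GB vs. GA. It had 6.57, 3.65 and 7.18 FPKM in CON, 8.76, 11.9 and 9.77 FPKM in GA and 13.6, 15.1 and 9.83 FPKM in GB, so that GA and GB overlapped. Its log2FC in GB vs. GA was 0.32 (limma adjusted p = 0.368). In GB vs. CON the row was called at 1.11 (SE 0.24, limma adjusted p = 0.00693), a call that was lost without CON replicate 2 (0.84) and without GB replicate 2 (0.99). With the hormones alone, in GA vs. CON, its log2FC was 0.80 (SE 0.24, limma adjusted p = 0.141) and it was not called. IFITM10 and LOC613699, the latter described as IFITM1, had at most 0.24 and 1.03 FPKM in any library and were not tested.

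The make-up of both families differed between GB and the groups without IFNT. The 4 IFIT rows summed to 47.8 ± 5.00 FPKM in CON, 48.7 ± 2.25 FPKM in GA and 1628 ± 10.6 FPKM in GB (SD, n = 3), a mean 33.4 times that of GA. IFIT5 made up 59.4% of this sum in GA and 16.1% in GB, while IFIT2 went from 0.305% to 14.2%, IFIT3 from 4.60% to 15.9% and LOC100139670 from 35.7% to 53.7%. The 8 IFITM rows summed to 1958 ± 111 FPKM in CON, 1896 ± 70.8 FPKM in GA and 16091 ± 356 FPKM in GB, a mean 8.49 times that of GA. IFITM1 held 57.4% of this sum in GA and 65.5% in GB, the share of IFITM3 went from 31.3% to 14.5%, and that of LOC112444847 went from 6.37% to 18.4%. The ratio of IFITM1 to IFITM3 lay between 1.71 and 1.80 in CON, between 1.81 and 1.86 in GA and between 4.36 and 4.73 in GB, so no GB library overlapped the others. No test was run on these shares. They were computed within each library and so do not depend on its scaling, but they are shares of FPKM per length and depend on how reads were split between similar rows.

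**Figure D3:**
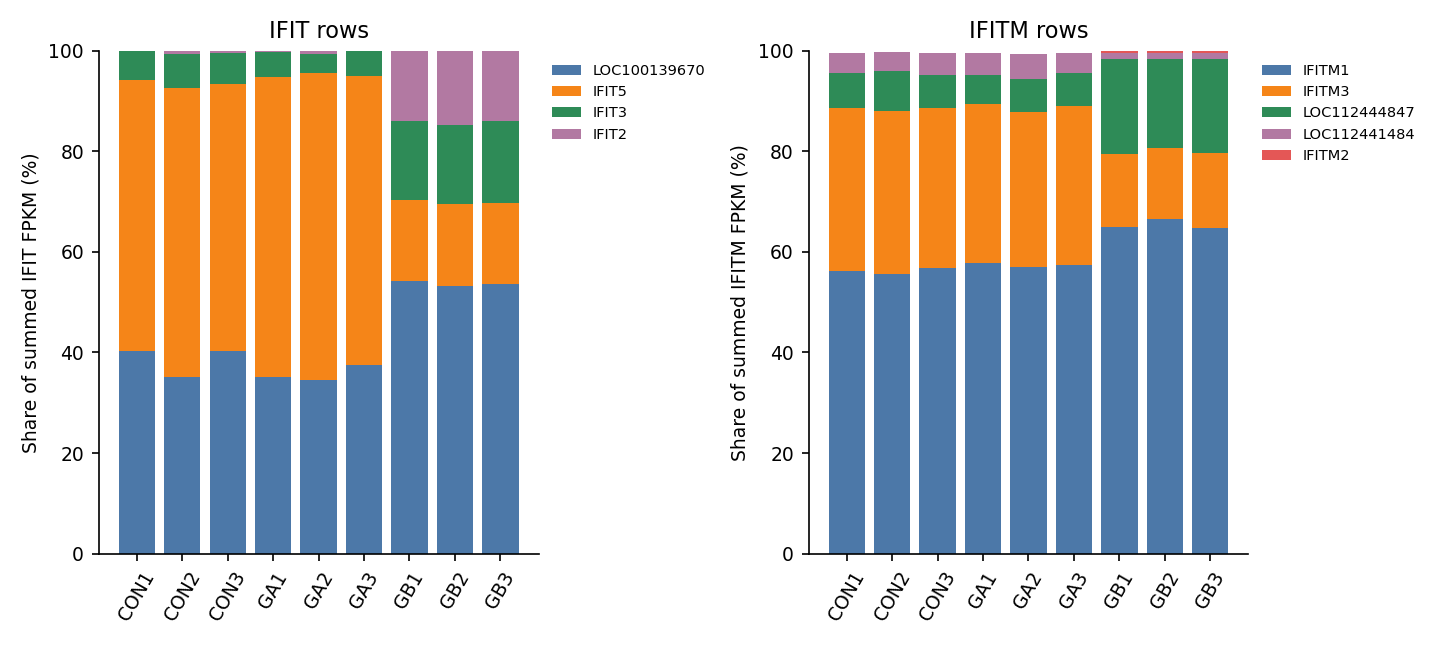
Share of each row (percent of the summed FPKM of its family) in each of the 9 libraries, for the 4 IFIT rows on the left and the IFITM rows IFITM1, IFITM3, LOC112444847, LOC112441484 and IFITM2 on the right, where the small remainder of the sum is left blank. IFIT5 is the largest IFIT segment in every CON and GA library and LOC100139670 the largest in every GB library, and among the IFITM rows the IFITM3 segment is smaller and the LOC112444847 segment larger in GB.

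Position was examined next, to see how genes beside the families behaved. In the RefSeq gene order (assembly ARS-UCD2.0, used for names and order only, since the expression table was made on ARS-UCD1.2), the 4 IFIT rows are adjacent to each other, IFITM1 and IFITM3 lie together at the end of a chromosome, and IFITM2 lies with IFITM5 and LOC112441484 on another. Of the 20 table genes within 4 places of these loci, 15 passed the filter. None of the 15 was called in GB vs. GA, where 3.64% of all tested genes were, and by limma 5 had an unadjusted p under 0.05 and 4 an adjusted p under 0.05, the latter beside 29% of all tested genes. Their log2FC ranged from -0.85 to 0.76, with a median of 0.03. In GB vs. CON, where 4.01% of tested genes were called, 1 neighbour was called in each direction, GREB1 (2.05) and CH25H (-1.16, beside 1.07% of tested genes called lower), and GREB1, an estrogen-responsive gene, was also called in GA vs. CON (2.02).

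At the IFIT locus, CH25H, which makes the antiviral oxysterol 25-hydroxycholesterol, had its lowest values in GB. Its FPKM was 17.6, 18.8 and 18.6 in CON, 13.3, 12.7 and 18.5 in GA and 7.49, 7.85 and 8.42 in GB. All GB libraries were below all others, as in 31% of tested genes in GB vs. GA, with a log2FC of -0.85 in GB vs. GA (SE 0.13, limma adjusted p = 0.00108) that was short of the fold threshold. LIPA, the lysosomal acid lipase gene, had 23.2, 18.8 and 23.5 FPKM in CON, 22.2, 24.8 and 25.9 FPKM in GA and 36.1, 35.7 and 33.8 FPKM in GB (log2FC 0.53 in GB vs. GA, limma adjusted p = 0.00264). The RefSeq span of LIPA overlaps all 4 IFIT rows. The library kit was directional, but the sources used here do not say if the counting used strand. These are whole gene spans in ARS-UCD2.0, and overlap of exons was not examined. Whether any reads were shared between LIPA and the IFIT rows is therefore not known, also for the IFIT levels without IFNT. FAS, the death receptor gene, had a log2FC of 0.37 (limma adjusted p = 0.0079), and at the IFITM2 locus PGGHG, whose span overlaps IFITM5, had 0.76 (limma adjusted p = 0.000789). At that locus the span of NBAS, a gene of vesicle transport, overlaps IFITM2, IFITM5 and LOC112441484. Overlap of exons was not examined there either. Whether any reads were shared among these rows is not known, also for IFITM2 with its little RNA without IFNT. NBAS itself had a log2FC of 0.04 in GB vs. GA (limma adjusted p = 0.727).

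**Figure D4:**
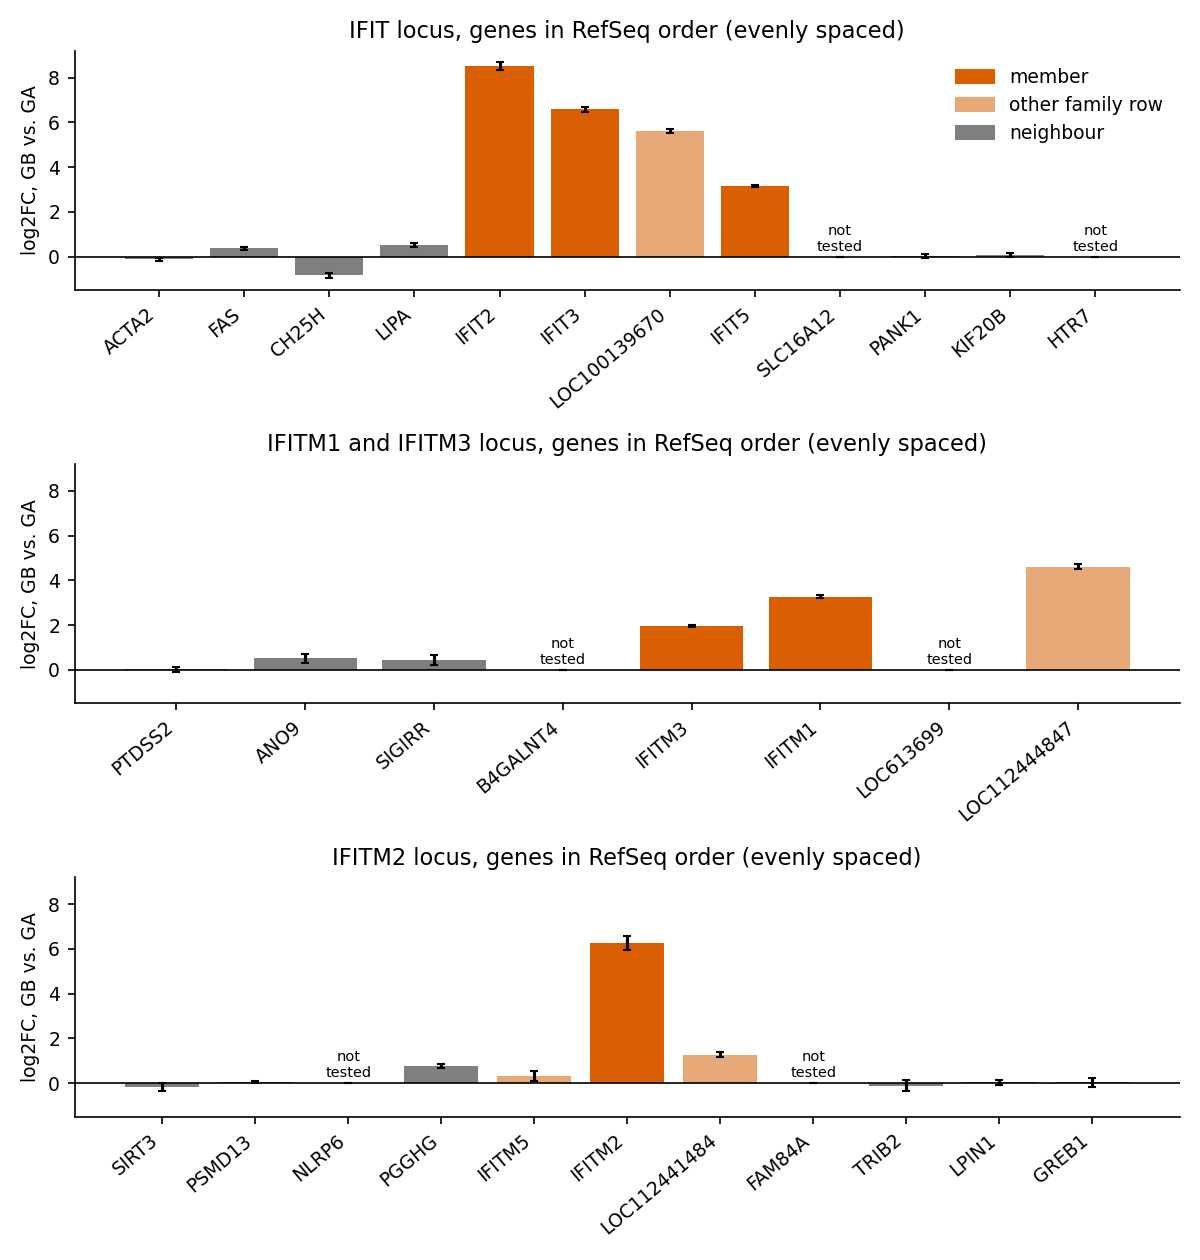
log2FC in GB vs. GA (bars, with error bars of 1 SE) for the genes of the 3 loci in RefSeq gene order, evenly spaced, with members in dark orange, other family rows in light orange and neighbours in grey; genes that did not pass the filter are marked as not tested. The 15 tested neighbours lie between -0.85 and 0.76, and the tested family rows other than IFITM5 (0.32) lie between 1.28 and 8.51.

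The nearest profiles to each member, by Euclidean distance of log2(FPKM + 0.5) centred on the gene's mean over the 9 libraries, included several known interferon-stimulated genes. IFIT2 was nearest to IFI44 (0.854), IFI44L (0.978) and OAS1X (1.02), the last an oligoadenylate synthetase gene. IFIT3 was nearest to CMPK2 (0.481), RTP4 (0.510) and LOC100336669 (0.586), and IFIT5 to EIF2AK2 (0.242), the gene of the RNA-dependent kinase PKR, then C4A (0.318) and LOC786372 (0.326). IFITM1 was nearest to PML (0.174), the nuclear body gene, and then to C4A (0.271) and LOC786372 (0.274). LOC786372 had 0 to 0.05 FPKM without IFNT and 4.33 to 5.07 FPKM in GB, so its distances depend on the pseudocount. Its log2FC in GB vs. GA ran from 2.50 to 5.57 over the alternatives. The same limit holds for C4A, at 0.48 to 0.61 FPKM without IFNT, and for IFI44, IFI44L and LOC100336669, near 0 there. IFITM3 was nearest to ATXN3 (0.234), LGALS3BP (0.234) and TAP2 (0.237), which encodes a peptide transporter of antigen presentation. IFITM2 had no such close profile, with LOC618409 at 2.13 and UBA7 at 2.37, while its own profile spanned 6.77 on the same log2 scale. These distances are descriptions over libraries that share their treatment, and a gene that moves by a like amount in GB is near for that reason alone.

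The genes of the interferon signal and its regulators had a lower median log2FC than the members. The list held the receptor chains IFNAR1 and IFNAR2, the kinases JAK1 and TYK2, STAT2 and IRF9 of ISGF3, the interferon regulatory factors IRF1 and IRF7, and the restraining genes USP18, SOCS1 and SOCS3. Of these 11 genes, all tested, 6 were called higher and 1 lower in GB vs. GA, where 0.978% of all tested genes were called lower, with a median log2FC of 1.87, and the counts were the same in GB vs. CON. STAT2 (1.87) and IRF9 (2.19), which belong to ISGF3, were called higher, as were IRF1 (2.40), IRF7 (2.59) and SOCS1 (2.56), and USP18, which restrains the receptor, rose most at 6.88 (limma adjusted p = 1.79e-10). IFNAR2, JAK1 and TYK2 were not called, nor was SOCS3. The receptor chain gene IFNAR1 was the gene called lower, from 35.7, 36.0 and 38.1 FPKM in GA to 12.4, 15.1 and 15.2 FPKM in GB (log2FC -1.34, limma adjusted p = 4.24e-06). Among 25 other interferon-stimulated genes, 24 were tested and all 24 were called higher in both comparisons with GB. The shares of all tested genes called higher were 2.66% in GB vs. GA and 2.94% in GB vs. CON. The list was chosen with earlier results of these data known, so this count is not independent support. The median log2FC of the 24 genes was 7.20 over GA and 6.97 over CON. Over GA they ran from 3.0 for EIF2AK2 to 10.34 for ISG15, a ubiquitin-like modifier, so IFIT5, IFITM1 and IFITM3 stood near or below the low end of this range and IFIT2 near its top.

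Genes whose products act with the families were mostly not called, as were most tested genes. Of 7 tested genes of proteins that IFIT proteins work with or against, 1 was called in GB vs. GA, beside 3.64% of all tested genes. By limma 3 of the 7 had an adjusted p under 0.05, beside 29% of all tested genes. The median log2FC of the 7 was 0.10. The called gene was CMTR2, a methyltransferase that marks host mRNA caps, at 6.63, 7.81 and 8.52 FPKM in GA and 49.8, 49.5 and 50.9 FPKM in GB (log2FC 2.64, SE 0.08, limma adjusted p = 1.69e-08). Its relative CMTR1 had a log2FC of 0.71 (limma adjusted p = 3.97e-06) and was short of the fold threshold, TBK1, an antiviral kinase, had 0.31, and TMEM173, the STING gene, had -0.08 (limma adjusted p = 0.811). By limma none of 6 genes whose products modify or bind IFITM proteins was called, beside the same 3.64% of all tested genes. Of the 6, 3 had an unadjusted p under 0.05 and 3 an adjusted p under 0.05, the latter beside 29% of all tested genes. The median log2FC of the 6 was -0.08. ZDHHC20, a palmitoyltransferase, had -0.89 (limma adjusted p = 0.000258), SETD7, a lysine methyltransferase, -0.72 (limma adjusted p = 4.41e-06) and CD81, a tetraspanin, 0.22 (limma adjusted p = 0.0409). Of the 10 other genes with the CD225 domain of the IFITMs, 6 are in the table and 2 were tested, IFITM5 and PRRT2. PRRT2, which acts at synapses, was called lower in GB vs. GA, where 0.978% of all tested genes were. Its log2FC was -1.01 (SE 0.19, limma adjusted p = 0.00379), just past the fold threshold. This call was lost without GA replicate 1 (-0.99), GA replicate 3 (-0.97) or GB replicate 2 (-0.86). In GB vs. CON the PRRT2 log2FC of -0.84 was not called, except without CON replicate 2 (-1.05). By limma none of the 50 tested genes of these 5 lists was called in GA vs. CON, where 0.0318% of all tested genes were called higher and 0.0398% lower. Of the 50, 15 had an unadjusted p under 0.05 by limma and none an adjusted p under 0.05. The share of all tested genes at that unadjusted p is not given here.

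**Figure D5:**
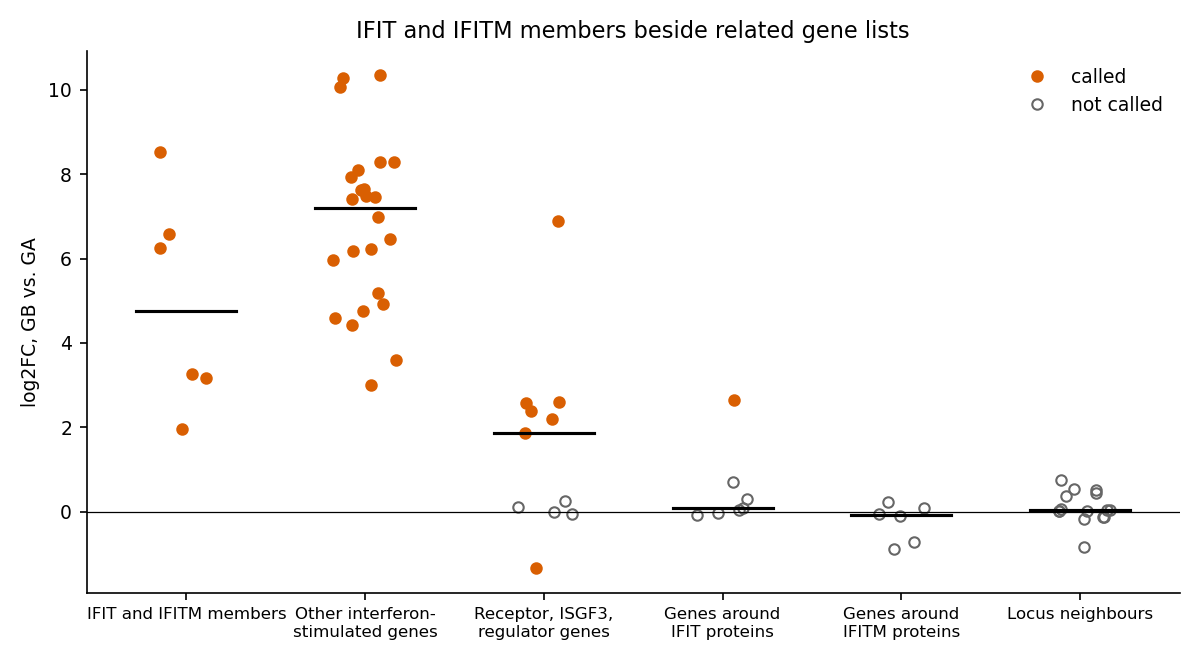
log2FC in GB vs. GA of the 6 members beside the other interferon-stimulated genes, the receptor, ISGF3 and regulator genes, the genes around IFIT and IFITM proteins and the neighbours at the loci; each point is 1 tested gene, filled where called, and each bar a median. The members' median of 4.77 lies between those of the other interferon-stimulated genes (7.20) and the receptor, ISGF3 and regulator genes (1.87), and the last 3 lists centre near 0.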

How the data were processed

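RNA was measured by poly-T RNA-seq in 9 libraries, 3 each of CON, GA and GB, grouped by their labels. Per the methods and processing notes, the authors trimmed reads with fastp 0.21.0, removed rRNA reads with Bowtie2 2.33, aligned to ARS-UCD1.2 with HISAT2 2.2.1, counted with RSEM 1.3.3 and tested with DESeq2 1.34.0. The deposited values are the authors' FPKM to 2 decimals. They hold no counts, so that test could not be repeated and counting intervals are not given. The study states read totals, which were not used here. FPKM scales for gene length, so levels can be compared between genes, and a large rise in abundant genes slightly lowers the FPKM of all others.

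Here limma 3.58.1 (R 4.3.3, plots with Python 3.11.15 and matplotlib 3.10.9) was run on log2(FPKM + 0.5) with a variance trend, 1 mean per group over all 9 libraries, a minimum mean of 0.5 FPKM, and p-values adjusted over all 12578 genes. On this scale the fold changes of genes with little RNA are understated. An exact permutation test of 3 against 3 cannot go below p = 0.1 and was not used. The procedure was tested on simulated data with normal noise on the log2 scale. Changes were planted only in genes above a set mean level, so that test does not cover values near 0 FPKM.

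The genes named are the members, rows described as IFIT or IFITM, 4 table genes on each side of each locus, the 3 nearest profiles per member, and from each list 2 to 4 genes with the largest and smallest log2FC and those called lower. STAT2, IRF9, IRF1, IRF7, SOCS1, NBAS, CMTR1, TBK1, SETD7, CD81 and the neighbours given values were picked after their values were seen. The members and lists were chosen with earlier results of these data known. RefSeq names matched 16304 of 17162 rows and all 12 family rows. Some genes are not reported here, and the counts for a list are over those that are. No sequences were used here. Alternatives were other pseudocounts, filters, scalings and models, a replicate block and each library left out.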

Additional observations from a re-analysis of the deposited data

How the results depend on the processing

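The 6 members stayed called higher in GB vs. GA and in GB vs. CON under all 19 alternatives, the replicate block included (6 and 6 called). In GA vs. CON the count of members called, 1 by the fit as reported, was 0 with a pseudocount of 0.1, with no filter, with a filter at a mean FPKM of 1, without the variance trend, with only the 2 groups compared and with the replicate block, and ranged from 0 to 1 when libraries were left out in turn. The count of all genes called in GA vs. CON went from 9 to 2 with the filter at a mean FPKM of 1, to 5 with the replicate block, and ranged from 3 to 14 over the left-out libraries. The IFITM2 value there was -3.34 with a pseudocount of 0.1 and -1.31 with a pseudocount of 1. No pairing by replicate number was seen, as deviations of same-numbered libraries correlated at -0.03 to 0.08 and those of differently numbered libraries at -0.07 to 0.06. These correlations cannot exclude a paired design with a weak shared effect.

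Uncalled values near 0 changed sign when 1 library was left out. Over the left-out libraries, log2FC in GA vs. CON ranged from -0.21 to 0.15 for IFIT2 (above 0 without CON replicate 2, CON replicate 3 or GA replicate 3), from -0.060 to 0.012 for IFITM1 (above 0 without CON replicate 2, CON replicate 3 or GA replicate 1), from -0.21 to 0.030 for LOC100139670 (above 0 without CON replicate 3) and from -0.019 to 0.14 for LOC112441484 (below 0 without GA replicate 2). In GB vs. GA, TMEM173 ranged from -0.29 to 0.18 (above 0 without GB replicate 1) and NBAS from -0.0071 to 0.079 (below 0 without GB replicate 2). PRRT2 lost its call in GB vs. GA under 4 of the other alternatives, with a pseudocount of 1 (-0.96), scaling to the same sum (-0.98), median-of-ratios factors (-0.94) and quantile normalization (-0.98). The cause of these changes was not tested. With 3 libraries per group and no read counts, values under about 1 FPKM are imprecise, and IFIT2 without IFNT and IFITM2 in GA are such values.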
